A study of Homo sapiens with 6 samples.

Results

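The transcripts described here encode 7 proteins of stress granules: G3BP1, G3BP2, CAPRIN1, ATXN2, ATXN2L, UBAP2L and USP10. Their binding sites were taken from 6 PAR-CLIP site lists as all sites whose midpoint lay in the hg19 span of one of these genes on its own strand, which gave 808 of 464799 sites. PAR-CLIP finds where a protein sits on RNA in living cells by linking 4-thiouridine in the RNA to the bound protein with ultraviolet light. The cells were FlpIn T-REx HEK293, an established human embryonic kidney line in which a tagged transgene is switched on by doxycycline. The transgenes were FLAG-HA FXR1, FLAG-HA FXR2, FLAG-HA FMR1 with the I304N change as isoform 7 or isoform 1, and FLAG-HA FMR1 in wild-type form (WT) as isoform 7 or isoform 1; FXR1 and FXR2 are paralogs of FMR1 and were WT. All 6 lines received 1 µg/ml doxycycline and 100 µM 4-thiouridine for 16 h, and all sites therefore describe an induced, tagged protein and not the cell's own. In all 6, the light had a wavelength of 365 nm and a dose of 0.15 J per square cm, and RNase T1 digestion took 15 min at 22 °C. Each protein form had 1 library, and no spread between repeats can be given. The labels name 1 cell line, and the site lists hold no expression values, so its identity could not be checked.

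Stress granules are cytoplasmic bodies of RNA and protein that form when translation initiation stalls. G3BP1 and G3BP2 are RNA-binding paralogs at the centre of the network, CAPRIN1 binds to them and promotes granule assembly, and the deubiquitinase USP10 binds to the same pocket and counteracts it. UBAP2L is a further assembly factor, and ATXN2 and ATXN2L are paralogs that associate with RNA and with poly(A)-binding protein. FMR1, the fragile X protein, and FXR1 and FXR2 are themselves RNA-binding components of these granules. I304N lies in a KH domain of FMR1, a fold that contacts RNA.

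In FXR1 and FXR2, most sites on these transcripts lay on G3BP1, G3BP2 and CAPRIN1 and in the last 25% of a gene span. In both I304N libraries and in WT isoform 7, the sites were spread more evenly, with a larger share on ATXN2L and UBAP2L. WT isoform 1 resembled FXR1 and FXR2 when sites were counted one by one. When sites at most 100 nt apart were joined into stretches, it lay nearer to the other FMR1 libraries. Its interval for the share on G3BP1, G3BP2 and CAPRIN1 then still overlapped that of FXR2. Joining acted unequally, from 243 sites to 87 stretches in WT isoform 1, 78 to 57 in FXR2 and 34 to 28 in FXR1. In WT isoform 1 the sites on G3BP1, G3BP2 and CAPRIN1 were densely packed. ATXN2 was nearly free of sites in all 6 libraries. The lists held 34 sites on the 7 transcripts of 9017 in FXR1 and 78 of 34521 in FXR2. The I304N lists held 120 of 88644 in isoform 7 and 191 of 132219 in isoform 1. The WT lists held 142 of 78495 in isoform 7 and 243 of 121903 in isoform 1. As a share of each list this was 0.377% in FXR1 (95% exact Clopper-Pearson interval 0.261 to 0.527), 0.226% in FXR2, 0.135% in I304N isoform 7, 0.144% in I304N isoform 1, 0.181% in WT isoform 7 and 0.199% in WT isoform 1. All intervals given are 95% intervals and cover counting error only, not the spread between repeat experiments. Sites of neighbouring positions are not independent of each other, so the true uncertainty is larger. The opposite strand of the same spans held 13 sites against 808 on the sense strand.

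**Figure D1:**
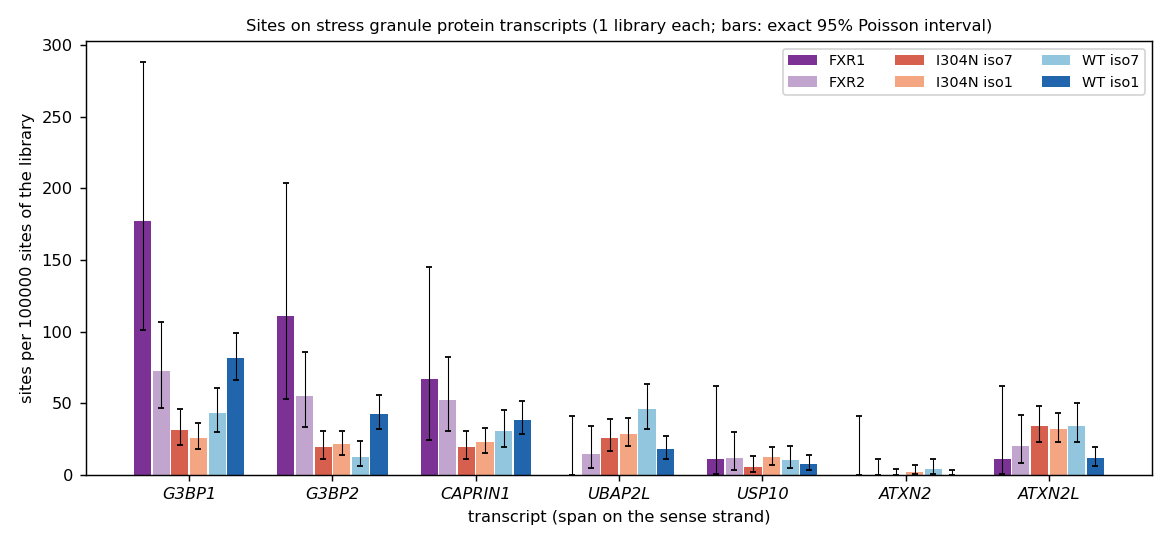
Sites per 100000 sites of each library (vertical axis) on the 7 transcripts (horizontal axis), with 1 bar per library and exact 95% Poisson intervals. FXR1, FXR2 and WT isoform 1 are highest on G3BP1, where they reach 177, 72.4 and 81.2, while ATXN2L is highest in the I304N libraries and WT isoform 7, at 31.8 to 34.4.

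G3BP1, whose protein nucleates stress granules, carried 236 sites, more than any other of the 7 transcripts (chromosome 5, 151151476 to 151192343, plus strand, hg19). It had 16 sites in FXR1, 25 in FXR2, 28 in I304N isoform 7, 34 in I304N isoform 1, 34 in WT isoform 7 and 99 in WT isoform 1. Scaled to 100000 sites per list these were 177 (101 to 288), 72.4, 31.6, 25.7, 43.3 and 81.2 (66.0 to 98.9) in the same order of libraries. The WT isoform 1 value stood out within its own list as well. When the genome was cut into stretches as long as this gene, 0.373% of the stretches with a site in WT isoform 1 held at least 99. The corresponding share was 1.08% in FXR1, 1.90% in FXR2, 5.90% in I304N isoform 7, 4.61% in I304N isoform 1 and 1.68% in WT isoform 7. Of the 236 sites, 31 carried the deposited repeat flag, 17 of them in WT isoform 1.

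G3BP2, the paralog of G3BP1, carried 136 sites (chromosome 4, 76567967 to 76598605, minus strand). There were 10 in FXR1, 19 in FXR2, 17 in I304N isoform 7, 28 in I304N isoform 1, 10 in WT isoform 7 and 52 in WT isoform 1. The list-scaled numbers were 111 (53.2 to 204), 55.0, 19.2, 21.2, 12.7 and 42.7 per 100000 in that order. Wild-type isoform 7, with 12.7 (6.11 to 23.4), was the lowest of the 6. None of these sites carried the repeat flag.

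CAPRIN1, the partner of G3BP proteins, carried 142 sites (chromosome 11, 34073230 to 34122703, plus strand). FXR1 had 6, FXR2 had 18, I304N isoform 7 had 17, I304N isoform 1 had 30, WT isoform 7 had 24 and WT isoform 1 had 47. The scaled numbers ran from 19.2 in I304N isoform 7 to 66.5 in FXR1, and the FXR1 interval of 24.4 to 145 spanned most of that range.

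ATXN2L, the shortest of the 7 genes, carried 121 sites (chromosome 16, 28834356 to 28848558, plus strand). FXR1 had 1 site, FXR2 had 7, I304N isoform 7 had 30, I304N isoform 1 had 42, WT isoform 7 had 27 and WT isoform 1 had 14. Scaled per 100000, I304N isoform 7, I304N isoform 1 and WT isoform 7 lay close together at 33.8, 31.8 and 34.4. FXR1, FXR2 and WT isoform 1 were lower, at 11.1 (0.281 to 61.8), 20.3 and 11.5 (6.28 to 19.3). Per kb of its span, ATXN2L held 2.96 sites in I304N isoform 1 and 0.986 in WT isoform 1, whereas G3BP1 held 0.832 in I304N isoform 1 and 2.42 in WT isoform 1. The order of these genes by site number per kb was therefore opposite in the 2 libraries.

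UBAP2L carried 124 sites (chromosome 1, 154192655 to 154243986, plus strand). It had none in FXR1, 5 in FXR2, 23 in I304N isoform 7, 38 in I304N isoform 1, 36 in WT isoform 7 and 22 in WT isoform 1. Scaled per 100000, WT isoform 7 was highest at 45.9 (32.1 to 63.5) and WT isoform 1 held 18.0 (11.3 to 27.3). The absence from FXR1 says little, because at 9017 sites a count of 0 still allows 33.3 per 100000 (3 counts), which is above the WT isoform 1 value.

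USP10 carried 43 sites (chromosome 16, 84733555 to 84813527, plus strand), with 1 in FXR1, 4 in FXR2, 5 in I304N isoform 7, 16 in I304N isoform 1, 8 in WT isoform 7 and 9 in WT isoform 1. Its scaled numbers lay between 5.64 and 12.1 per 100000, and all 6 intervals overlapped. ATXN2 carried 6 sites on the longest span of the 7 (chromosome 12, 111890018 to 112037480, minus strand). I304N isoform 1 and WT isoform 7 had 3 each, and the other 4 libraries had none. One position was seen in both, at 111963047 to 111963063 in I304N isoform 1 and 111963043 to 111963067 in WT isoform 7. For the 4 libraries at 0, a count of 0 allows 33.3 per 100000 in FXR1, 8.69 in FXR2, 3.38 in I304N isoform 7 and 2.46 in WT isoform 1. In number of sites ATXN2 thus stood apart from its paralog ATXN2L, which had 121 on a span of 14.2 kb against 6 on 147 kb.

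How the sites were divided among the 7 transcripts does not depend on how the lists are scaled. G3BP1, G3BP2 and CAPRIN1 together took 94.1% of the sites in FXR1 (80.3 to 99.3), 79.5% in FXR2 (68.8 to 87.8) and 81.5% in WT isoform 1 (76.0 to 86.2). They took 51.7% in I304N isoform 7 (42.4 to 60.9), 48.2% in I304N isoform 1 (40.9 to 55.5) and 47.9% in WT isoform 7 (39.4 to 56.4). The 3 higher shares and the 3 lower ones did not overlap in their intervals. Counted in joined stretches, the share was 92.9% in FXR1 (76.5 to 99.1) and 73.7% in FXR2 (60.3 to 84.5), against 55.1% in I304N isoform 7, 50% in I304N isoform 1, 47.8% in WT isoform 7 and 59.8% in WT isoform 1 (48.7 to 70.1). The WT isoform 1 interval then overlapped those of the other 3 FMR1 libraries and that of FXR2, but not that of FXR1. These 3 transcripts were grouped after their values had been seen, so the contrast is a description. G3BP1 alone took 47.1%, 32.1% and 40.7% of the sites in FXR1, FXR2 and WT isoform 1, against 23.3%, 17.8% and 23.9% in I304N isoform 7, I304N isoform 1 and WT isoform 7. ATXN2L took 2.94%, 8.97% and 5.76% in the first 3 of these libraries and 25%, 22.0% and 19.0% in the others.

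The libraries also differed in position along the gene. The last 25% of a span was used as a measure of closeness to the 3′ end, a choice made after the positions had been seen, and over the 7 transcripts it held 91.2% of the sites in FXR1 (76.3 to 98.1) and 76.9% in FXR2 (66.0 to 85.7). It held 45.8% in I304N isoform 7 (36.7 to 55.2), 47.1% in I304N isoform 1 (39.9 to 54.5), 52.1% in WT isoform 7 (43.6 to 60.6) and 70.8% in WT isoform 1 (64.6 to 76.4). Counted in joined stretches, it held 89.3% in FXR1 and 70.2% in FXR2, against 46.2% in I304N isoform 7, 44.7% in I304N isoform 1, 48.9% in WT isoform 7 and 42.5% in WT isoform 1 (32.0 to 53.6), so that WT isoform 1 no longer stood above the other FMR1 libraries. With the last 50% of a span in place of 25%, the site shares lay at 89.7% to 96.2% in FXR1, FXR2 and WT isoform 1 and at 78.3% to 83.8% in the other 3, and with the last 10% at 43.6% to 55.9% and 25% to 26.1%.

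Because the libraries differ in which genes they favour, the shares were also taken gene by gene, and there the division held only in part. On G3BP1 the share was 93.8% in FXR1 and 92% in FXR2, 67.9% and 70.6% in I304N isoforms 7 and 1, 76.5% in WT isoform 7 and 85.9% in WT isoform 1 (77.4 to 92.05), and the intervals of all 6 overlapped, that of I304N isoform 1 being 52.5 to 84.9. On G3BP2 it lay between 75% and 90% in every library, and all intervals overlapped. On CAPRIN1 it was 35.3% in I304N isoform 7 (14.2 to 61.7), against 54.2% in WT isoform 7 (32.8 to 74.4), and 53.3% in I304N isoform 1, against 76.6% in WT isoform 1 (62.0 to 87.7). Each of these CAPRIN1 pairs overlapped in its intervals. On the same gene FXR1 had 100%, from 6 sites, and FXR2 had 77.8%. On ATXN2L WT isoform 1 was the lowest, at 14.3% (1.78 to 42.8). There I304N isoform 7 had 43.3%, I304N isoform 1 had 47.6% and WT isoform 7 had 44.4%. FXR2 had 71.4% on ATXN2L, 5 of 7 sites, and the single FXR1 site lay in the last 25%. On UBAP2L the I304N libraries had 17.4% (isoform 7) and 18.4% (isoform 1), against 33.3% in WT isoform 7 (18.6 to 51.0) and 18.2% in WT isoform 1 (5.19 to 40.3).

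**Figure D2:**
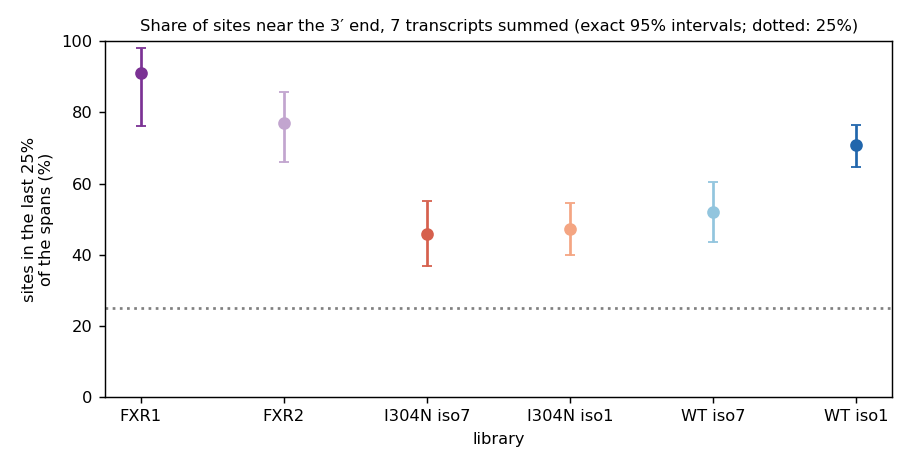
Percent of sites on the 7 transcripts that lay in the last 25% of a span (vertical axis), by library (horizontal axis), with exact 95% intervals and a dotted line at 25%. FXR1, FXR2 and WT isoform 1 lie at 70.8% to 91.2%, above the other 3 libraries at 45.8% to 52.1%; counted in joined stretches, WT isoform 1 would lie at 42.5%.

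In the first 75% of the spans, I304N isoform 1 had 101 sites against 71 in WT isoform 1, a scaled ratio of 1.31 (0.959 to 1.80), and in the last 25% it had 90 against 172, a ratio of 0.482 (0.370 to 0.626). The difference between WT isoform 7 and WT isoform 1 had the same form, with 68 against 71 sites in the first 75%, a ratio of 1.49 (1.05 to 2.10), and 74 against 172 in the last 25%, a ratio of 0.668 (0.502 to 0.882). Both comparisons use the same WT isoform 1 library. The summed ratios in the last 25% joined genes that went opposite ways. In I304N over WT of isoform 1, G3BP1 was at 0.260, G3BP2 at 0.450 and CAPRIN1 at 0.410. ATXN2L was at 9.22 and UBAP2L at 1.61 (0.410 to 7.52). For WT isoform 7 over WT isoform 1 these genes were at 0.475, 0.289, 0.561, 9.32 and 4.66 in that order. ATXN2 and USP10 had at most 2 sites there in each of these libraries. How far the choice of genes entered the summed ratios was not tested.

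On G3BP1, the last 9 windows of 1 kb all held sites and together took 81.4% of its sites. The 3 densest lay 34 to 35 kb, 36 to 37 kb and 37 to 38 kb from the 5′ end of the span. The densest (151187476 to 151188475) had 4 sites in FXR1, 4 in FXR2, 3 in I304N isoform 7, 6 in I304N isoform 1, 6 in WT isoform 7 and 9 in WT isoform 1. In the kilobase 33 to 34, by contrast, WT isoform 1 had 13 sites and each other library had 1 to 4. The 4 widest of all 808 sites were WT isoform 1 sites on G3BP1, with widths of 276 and 244 nt in the kilobase 34 to 35 and 212 and 169 nt in the kilobase 36 to 37. In that library 99 sites on G3BP1 joined into 19 stretches when sites at most 100 nt apart were merged, against 25 stretches from 34 sites in I304N isoform 1.

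On G3BP2, 79.4% of the sites lay in its last 5 windows. The 2 densest, 28 to 29 kb (76569606 to 76570605) and 29 to 30 kb (76568606 to 76569605) from the 5′ end, had sites from all 6 libraries, and WT isoform 1 had the highest number in each. In the first of these, FXR1 had 5 sites and FXR2 had 8, while I304N isoform 7 had 1, I304N isoform 1 had 3, WT isoform 7 had 3 and WT isoform 1 had 11. In the second, FXR1 had 1 and FXR2 had 5, while I304N isoform 7 had 7, I304N isoform 1 had 9, WT isoform 7 had 2 and WT isoform 1 had 13. The third, at the very 3′ end (30 to 31 kb), had 3 sites in FXR1, 4 in FXR2, 0 in I304N isoform 7, 1 in I304N isoform 1, 1 in WT isoform 7 and 9 in WT isoform 1.

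CAPRIN1 had sites at both ends. Its first kilobase had 4 sites in I304N isoform 7, 5 in I304N isoform 1, 4 in WT isoform 7, 2 in WT isoform 1 and none in FXR1 or FXR2. Its densest kilobase, 48 to 49 kb from the 5′ end (34121230 to 34122229), had 2 in FXR1, 4 in FXR2, 0 in I304N isoform 7, 2 in I304N isoform 1, 3 in WT isoform 7 and 9 in WT isoform 1. The second densest, 46 to 47 kb, had 7 in WT isoform 1 and 1 to 4 in the others, and 2 windows tied for the third place with 16 sites. Of these, 34 to 35 kb had 4 in WT isoform 1, 2 to 4 in the other FMR1 libraries and FXR2, and none in FXR1, and 38 to 39 kb had 2 in FXR1, 3 in FXR2 and 2 to 4 in each FMR1 library.

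On ATXN2L, 13 of 15 windows of 1 kb held a site, the widest coverage of a span among the 7. Its densest kilobase, 13 to 14 kb from the 5′ end (28847356 to 28848355), had 7 sites in I304N isoform 7, 10 in I304N isoform 1, 7 in WT isoform 7, 1 in WT isoform 1, 1 in FXR2 and 0 in FXR1. In the last 25% of this gene I304N isoform 1 had 20 sites against 2 in WT isoform 1, a scaled ratio of 9.22 (2.24 to 81.4), and WT isoform 7 had 12 against 2, a ratio of 9.32 (2.07 to 85.7). At the 3′ end of this gene WT isoform 1 was thus the sparsest of the 4 FMR1 libraries, in contrast to G3BP1. The second densest window, 11 to 12 kb, had 1 site in FXR1 and 3 in FXR2, 3 to 5 in the I304N libraries and WT isoform 7, and 1 in WT isoform 1. The third, 3 to 4 kb, was the one in which WT isoform 1 had most sites of this gene, 5, with 4 in I304N isoform 7, 2 in I304N isoform 1, 3 in WT isoform 7, 1 in FXR2 and 0 in FXR1.

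UBAP2L sites lay in the middle of the gene. The median distance to the 3′ end was 20.3 kb on a span of 51.3 kb, and 22.6% of its sites lay in the last 25%. The densest kilobase, 31 to 32 kb (154223655 to 154224654), had 5 sites in each I304N library and in WT isoform 7, 2 in WT isoform 1 and none in FXR1 or FXR2. The next 2, 26 to 27 kb and 39 to 40 kb, had 2 or 3 sites in every FMR1 library, 1 in FXR2 and none in FXR1. On USP10, 15 of 43 sites fell in the kilobase 45 to 46 (84778555 to 84779554), 4 in I304N isoform 7, 5 in I304N isoform 1 and 3 in each WT FMR1 library. The next 2, 58 to 59 kb and 44 to 45 kb, held 7 and 6 sites over all libraries.

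**Figure D3:**
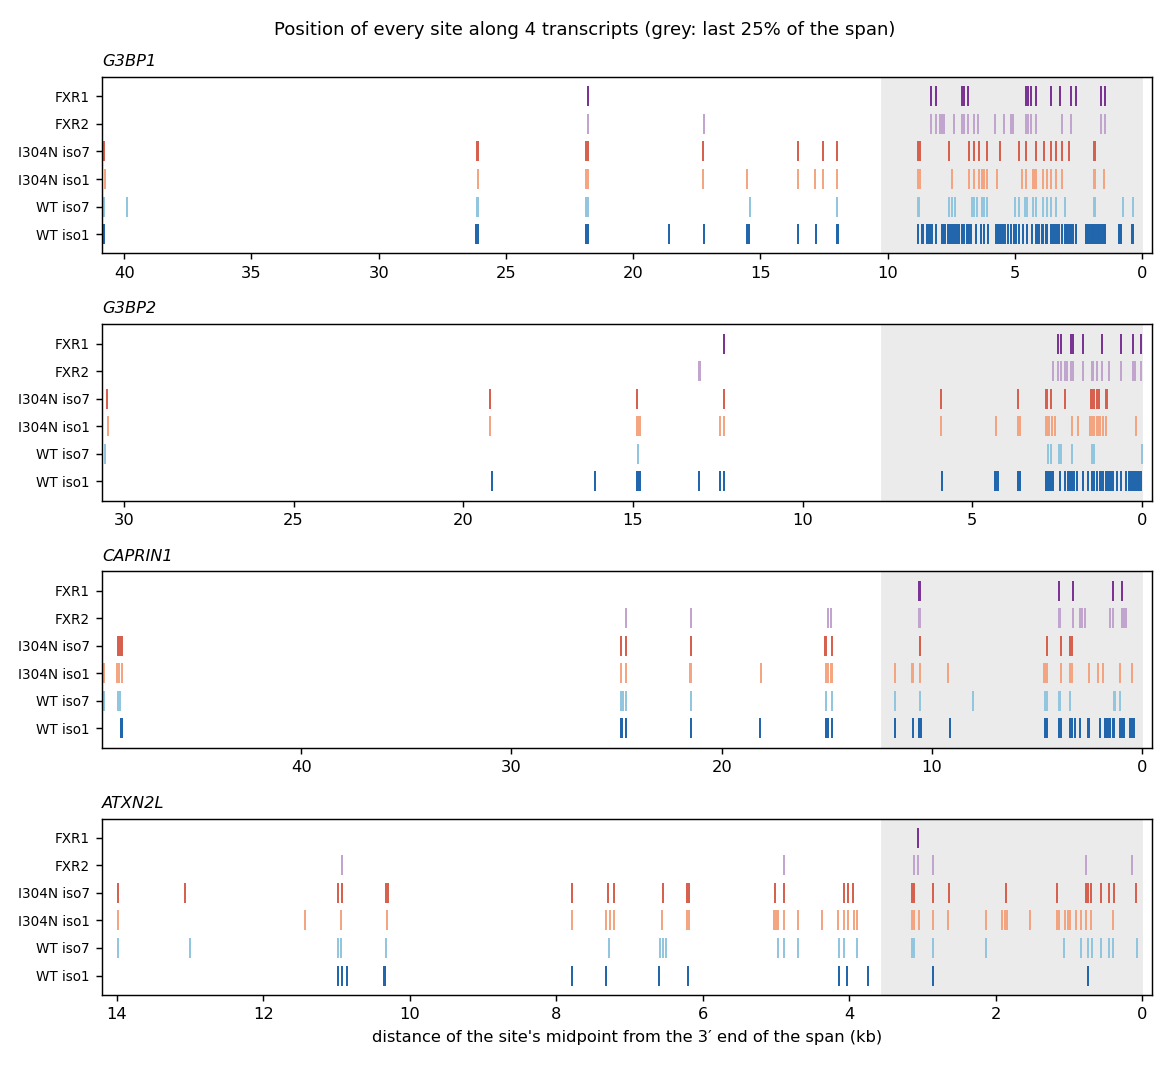
Every site on G3BP1, G3BP2, CAPRIN1 and ATXN2L as a tick at its distance in kb from the 3′ end of the span (horizontal axis), with 1 row per library and the last 25% of the span in grey. Ticks of WT isoform 1, FXR1 and FXR2 crowd into the grey area on the first 3 genes, while on ATXN2L the 2 I304N libraries and WT isoform 7 are spread over the whole span.

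These differences in position can be set beside the annotated transcripts. The site coordinates are on hg19 and the gene models at hand (GENCODE release 29) are on GRCh38, so no site was assigned to an exon, an intron or an untranslated region. By annotated length alone, the transcript with the longest coding sequence had a 3′ untranslated region of 8697 nt in G3BP1, 2651 nt in G3BP2, 1792 nt in CAPRIN1, 601 nt in ATXN2, 560 nt in UBAP2L, 523 nt in ATXN2L and 115 nt in USP10, against a median of 749 nt over 19614 coding genes. The 3 transcripts that took most sites in FXR1, FXR2 and WT isoform 1 are thus the 3 with the longest annotated 3′ untranslated regions of the 7. Coding sequences were shortest in the same 3, at 1398 nt in G3BP1, 1446 nt in G3BP2 and 2127 nt in CAPRIN1. They were 2406 nt in USP10, 3261 nt in UBAP2L, 3291 nt in ATXN2L and 3939 nt in ATXN2. Whether length accounts for the division was not tested.

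The letters ACTT or ACTG, and with them TGGA or AGGA, short words of the kind reported for FMR1 binding, were counted on the sense strand of the same GENCODE transcripts, with overlaps allowed. In coding sequence they occurred 23.6 times per kb in G3BP1, 28.4 in G3BP2, 20.2 in CAPRIN1, 12.9 in ATXN2, 16.1 in ATXN2L, 20.9 in UBAP2L and 24.1 in USP10, against a median of 24.3 over all coding genes. ATXN2 was low in this respect, with 4.39% of coding genes at or below it, and so was ATXN2L, with 9.95%. In 3′ untranslated regions of at least 500 nt they occurred 25.2 times per kb in G3BP1, 21.1 in G3BP2, 27.9 in CAPRIN1, 41.6 in ATXN2, 22.9 in ATXN2L and 16.1 in UBAP2L, against a median of 20.1. Here ATXN2 was high, with 99.9% of genes with such a region at or below it. Words of 4 letters are frequent in any transcript, and these values describe the transcripts and not the sites, whose sequences were not read.

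The overlap of sites shows how far the site lists shared positions. On the 7 transcripts, 30 of 34 FXR1 sites overlapped a WT isoform 1 site by at least 1 nt, 88.2% (72.5 to 96.7), against 70.0% for all 9017 FXR1 sites. Of 78 FXR2 sites, 60 did so, 76.9% (66.0 to 85.7), against 64.4% for all FXR2 sites. In both cases the share over all sites lay just below the interval on these transcripts. FXR1 sites overlapped I304N isoform 7 in 17.6% of cases (6.76 to 34.5), I304N isoform 1 in 17.6% and WT isoform 7 in 20.6%, against 18.2%, 27.4% and 21.2% over all FXR1 sites. FXR2 sites overlapped the same 3 libraries in 28.2%, 32.1% (21.9 to 43.6) and 25.6%, against 34.8%, 46.2% and 32.1% over all FXR2 sites. Only for I304N isoform 1 did the value over all FXR2 sites lie outside the interval on these transcripts. Wild-type isoform 1 sites covered 9401 nt of the 7 spans, against 3255 nt in I304N isoform 7, 5949 nt in I304N isoform 1 and 3244 nt in WT isoform 7. The part of this covered length in the overlap was not tested.

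**Figure D4:**
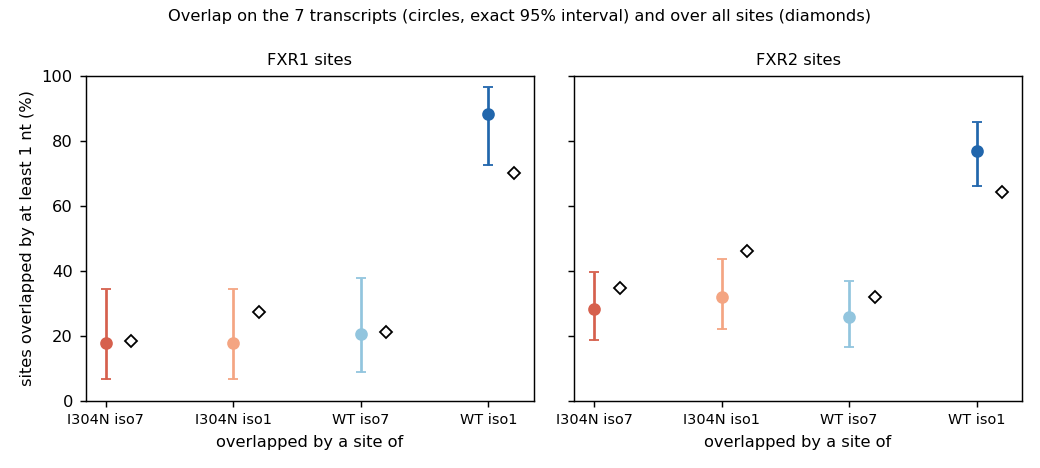
Percent of FXR1 sites (left) and FXR2 sites (right) overlapped by at least 1 nt by a site of each FMR1 library (horizontal axis), on the 7 transcripts (circles, exact 95% interval) and over all sites of the library (diamonds). Overlap with WT isoform 1 reaches 88.2% and 76.9%, and with the other 3 libraries it lies between 17.6% and 32.1%.

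Most of the overlapping sites lay on G3BP1 and G3BP2, as did most FXR1 and FXR2 sites. All 10 FXR1 sites on G3BP2 and 15 of 16 on G3BP1 overlapped WT isoform 1, as did 5 of 6 on CAPRIN1, while the single sites on ATXN2L and USP10 did not. For FXR2 the numbers were 23 of 25 on G3BP1, 18 of 19 on G3BP2, 13 of 18 on CAPRIN1, 2 of 7 on ATXN2L, 2 of 5 on UBAP2L and 2 of 4 on USP10. Of the FXR1 sites, 30 of 34 (88.2%) overlapped an FXR2 site, and 17 of these had both ends identical. The identical share of 56.7% compared with 58.9% over all overlapping FXR1 sites. With the FMR1 libraries the identical share over all overlapping FXR1 sites was far lower, from 3.65% with I304N isoform 7 to 10.5% with WT isoform 7. Why FXR1 and FXR2 sites so often had the same ends was not tested. On USP10 the only FXR1 site (84754694 to 84754709) started at the same base as an FXR2 site that ended at 84754712, and no FMR1 library had a site in that kilobase.

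Joined over all libraries, the sites formed 354 regions on the 7 transcripts, 163 of them (46.0%) seen in a single library, against 55.3% of the 237434 regions of the whole series. WT isoform 1 alone had 92 of the 354, 26.0%, against 21.8% over the series. G3BP1 had 109 regions, 50 of which were found in WT isoform 1 alone. Of 77 regions with an FXR1 or FXR2 site, 61 had a WT isoform 1 site, 79.2%, against 61.6% over the series. Of these 61, 27 had no other FMR1 library, against 7725 of 20770 over the series. All 4 FMR1 libraries shared 47 regions, 13.3% against 9.13% over the series, led by G3BP1 with 14 and UBAP2L with 13. Of the 47, 29 had no FXR1 or FXR2 site, against 14138 of 21674 over the series. UBAP2L held 11 of these 29. Regions with a site in each I304N library but in no WT one numbered 16, of which 8 lay on ATXN2L; at 4.52% this was below the 8.31% over the series. Regions with a site in each WT library but in no I304N one numbered 10, 2.82% against 1.89% over the series, of which 5 lay on G3BP1.

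All 6 libraries met in 4 regions, 1.13% of the 354, against 0.607% over the series. On G3BP1, 151170533 to 151170581 held 1 site of each library, 21.8 kb from the 3′ end, and WT isoform 1, WT isoform 7, I304N isoform 7 and FXR2 all started at 151170536. The other G3BP1 regions were 151187733 to 151187944 and 151188127 to 151188202. In the first of these, WT isoform 1 had 1 site of 212 nt, whereas FXR1 had sites at 151187781 to 151187800 and 151187839 to 151187859, and the I304N sites were 42 nt wide in isoform 7 and 39 nt wide in isoform 1. In the second, FXR1 and FXR2 had the identical site 151188147 to 151188171, between positions called separately in I304N isoform 1. On CAPRIN1, 34112111 to 34112179 lay 10.6 kb from the 3′ end. There, 4 libraries placed 2 adjacent sites, FXR1 and FXR2 shared the site 34112147 to 34112164, and all 4 FMR1 libraries and FXR2 had a site that started at 34112111.

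The I304N libraries were compared with WT of the same isoform, to see how a change in a KH domain bears on binding to these transcripts. In isoform 1, G3BP1 was 2-fold or more lower in I304N, with 34 sites against 99, a scaled ratio of 0.317 (0.208 to 0.472). The direction stayed under median-of-ratios scaling, at 0.492, and by nucleotides covered, at 0.190, but not for the number of merged stretches, at 1.04. G3BP2 had a ratio of 0.496 (0.302 to 0.801), from 28 sites against 52, and CAPRIN1 had a ratio of 0.588 (0.359 to 0.95), from 30 against 47. Under median-of-ratios scaling G3BP2 and CAPRIN1 were nearer to 1, at 0.772 and 0.915, and so they were in stretches, at 0.791 and 0.753. By nucleotides covered they were at 0.375 and 0.770. ATXN2L was higher in I304N, with 42 sites against 14, a ratio of 2.77 (1.48 to 5.48), and UBAP2L had 38 against 22, a ratio of 1.59 (0.918 to 2.83). Counted in stretches these ratios were 1.58 and 1.02, and by nucleotides covered they were 5.16 and 2.18. The 2-fold limit was set on the log2 of scaled number plus 1, which pulls ratios of small numbers toward 1, so that G3BP2 did not reach it and ATXN2, with 3 sites against 0, did. So 2 of 7 transcripts were at least 2-fold higher and 1 at least 2-fold lower, where 29.9% and 20.4% of 7869 windows of 50 kb were; of windows with a mean of at least 10 scaled sites, a density most of the 7 reach, 18.2% and 26.2% were. ATXN2 did not pass the filter used for windows, a mean of 2 scaled sites, and the other 6 did.

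In isoform 7, the same comparison gave smaller differences on G3BP1, G3BP2, CAPRIN1 and ATXN2L. G3BP1 had 28 sites in I304N against 34 in WT, a ratio of 0.729 (0.426 to 1.24), CAPRIN1 had 17 against 24, at 0.627 (0.316 to 1.22), and ATXN2L had 30 against 27, at 0.984 (0.565 to 1.72). UBAP2L was lower in I304N, with 23 against 36, at 0.566 (0.320 to 0.981), and G3BP2 had 17 against 10, at 1.51 (0.651 to 3.68). None of 7 was at least 2-fold higher and ATXN2, with 0 against 3, was the only one at least 2-fold lower, where 21.4% and 20.1% of 7513 windows and 20.9% and 12.2% of the denser ones were. Of the changes seen in isoform 1, those of G3BP1 and CAPRIN1 pointed the same way in isoform 7, that of G3BP1 with a smaller size. Both of these isoform 7 intervals included 1. The change of ATXN2L did not recur, and those of G3BP2 and UBAP2L pointed the other way in isoform 7. USP10 also pointed the other way, at 1.64 (0.682 to 4.21) in isoform 1 and 0.553 (0.142 to 1.92) in isoform 7. Each of these USP10 intervals included 1. Whether the isoforms differ could not be tested with 1 library each.

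**Figure D5:**
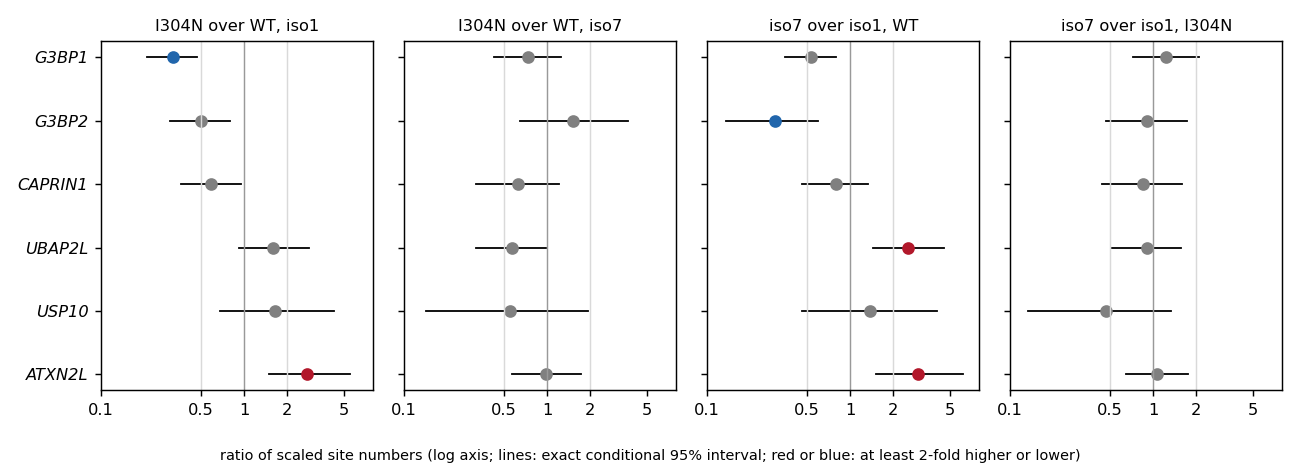
Ratio of scaled site numbers (horizontal log axis) for 6 of the 7 transcripts in the 4 comparisons between FMR1 libraries, with exact conditional 95% intervals; ATXN2, which had at most 3 sites in any library, is not drawn. Against WT isoform 1, G3BP1 and G3BP2 lie at 0.299 to 0.533 and ATXN2L at 2.77 and 2.995, while in the other 2 comparisons the points of all 6 transcripts lie between 0.466 and 1.51.

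Summed over the 7 transcripts, I304N had a scaled ratio to WT of 0.725 (0.596 to 0.880) in isoform 1 and 0.748 (0.582 to 0.961) in isoform 7. The isoform 1 value rested on G3BP1: without it the ratio was 1.01, without G3BP1 and G3BP2 it was 1.29, and under median-of-ratios scaling it was 1.13. Median-of-ratios scaling raised all ratios of this comparison by 0.64 on the log2 scale, those of isoform 7 by 0.30, those of isoform 7 over isoform 1 by 0.60 in WT and 0.26 with I304N, and lowered those of FXR1 and FXR2 over WT isoform 1 by values of -0.43 and -0.10. Differences between transcripts within 1 comparison are not affected by it. In isoform 1 the spread from 0.317 on G3BP1 to 2.77 on ATXN2L is of that kind.

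Isoform 7 was compared with isoform 1 in the same way, as a comparison of splice forms of the protein. In WT, ATXN2L had 27 sites in isoform 7 against 14 in isoform 1, a scaled ratio of 2.995 (1.52 to 6.18), and UBAP2L had 36 against 22, a ratio of 2.54 (1.46 to 4.53). G3BP2 was lower, with 10 against 52, a ratio of 0.299 (0.135 to 0.594), and G3BP1 had 34 against 99, at 0.533 (0.350 to 0.795). In stretches the ratio was 1.73 for ATXN2L, 1.46 for UBAP2L and 0.629 for G3BP2, and that of G3BP1 turned to 1.25. By nucleotides covered it was 4.57 for ATXN2L, 2.94 for UBAP2L, 0.206 for G3BP2 and 0.293 for G3BP1. CAPRIN1 had 24 against 47, at 0.793 (0.464 to 1.32), and its direction turned under median-of-ratios scaling, at 1.20. Under the same scaling G3BP1 was at 0.806, above its counting interval, G3BP2 at 0.452, ATXN2L at 4.53 and UBAP2L at 3.84. With ATXN2 at 3 sites against 0, 3 of 7 transcripts were at least 2-fold higher and 1 at least 2-fold lower, where 21.3% and 22.4% of 7380 windows and 13.6% and 26.8% of the denser ones were. With I304N, isoform 7 and isoform 1 lay close together on most transcripts. G3BP1 had a ratio of 1.23 (0.718 to 2.09), G3BP2 of 0.906 (0.465 to 1.71), CAPRIN1 of 0.845, ATXN2L of 1.07 (0.644 to 1.74), UBAP2L of 0.903 and USP10 of 0.466 (0.134 to 1.33), the last from 5 sites against 16. None was at least 2-fold higher and ATXN2, with 0 against 3, was at least 2-fold lower, where 5.5% and 16.3% of 7947 windows and 4.9% and 5.11% of the denser ones were. By number of sites WT isoform 1 was thus the FMR1 library that stood apart on these transcripts, and with 1 library per protein form a property of isoform 1 and a property of that library cannot be told apart.

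ATXN2L and USP10 lie on chromosome 16, which held a smaller share of all sites in WT isoform 1, 3.13%, and in FXR1, 3.26%, than in FXR2 (4.25%), I304N isoform 7 (4.97%), I304N isoform 1 (5.10%) and WT isoform 7 (5.18%). Scaled to sites on chromosome 16 alone, the ATXN2L ratio of I304N to WT in isoform 1 was 1.70, and that of isoform 7 to isoform 1 in WT was 1.81. Both stayed above 1 and fell short of 2-fold. The USP10 ratios scaled in this way were 1.01 for I304N to WT in isoform 1, where scaling to all sites gave 1.64 (0.682 to 4.21), and 0.834 for isoform 7 to isoform 1 in WT, where it gave 1.38 (0.463 to 4.03), so the direction of the last one turned.

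The paralogs were set against WT isoform 1, the FMR1 library with which they shared most positions. FXR1 was at least 2-fold higher on G3BP1, with 16 sites against 99, a scaled ratio of 2.18 (1.20 to 3.73), and on G3BP2, with 10 against 52, a ratio of 2.60 (1.18 to 5.17). CAPRIN1 had a ratio of 1.73 (0.603 to 4.04). UBAP2L, with 0 sites against 22, counted as at least 2-fold lower by the log2 value, but its exact interval reached 2.47 on the upper side and no fold is given. These 2 of 7 higher and 1 of 7 lower compare with 31.5% and 46.5% of 6651 windows, and 21.6% and 24.8% of the denser ones. Under median-of-ratios scaling the G3BP1 and G3BP2 ratios were 1.62 and 1.93, below 2-fold, and counted in stretches they were 5.10 and 4.97. By nucleotides covered these 2 ratios were 1.41 and 2.09. FXR2 differed less from WT isoform 1, with 25 sites against 99 on G3BP1, a ratio of 0.892 (0.551 to 1.39), 1.29 (0.720 to 2.22) on G3BP2, 1.35 on CAPRIN1, 1.77 (0.603 to 4.67) on ATXN2L, 0.803 on UBAP2L and 1.57 on USP10. In stretches the G3BP1 ratio turned to 2.37 and that of G3BP2 was 2.06. By nucleotides covered the G3BP1 ratio was 0.536 and that of G3BP2 was 1.01. None of 7 passed 2-fold in either direction, where 14.1% of 6660 windows were higher and 23.2% lower, and 12.7% and 16.8% of the denser ones. FXR1 exceeded FXR2 on G3BP1, with 16 sites against 25, a ratio of 2.45 (1.22 to 4.77), and the ratio on G3BP2 was 2.01 (0.837 to 4.55). That made 1 of 7 higher, and UBAP2L with 0 against 5 made 1 of 7 lower, where 32.9% and 39% of 5925 windows and 19.9% and 21.7% of the denser ones were. Over the 7 transcripts the scaled ratio was 1.89 (1.28 to 2.72) for FXR1 over WT isoform 1, 1.13 (0.867 to 1.47) for FXR2 over WT isoform 1 and 1.67 (1.08 to 2.53) for FXR1 over FXR2. The first and second of these use the same FMR1 library.

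Sites on the 7 transcripts had a median width of 21 nt in FXR1, 20 nt in FXR2, 24 nt in I304N isoform 7, 25 nt in I304N isoform 1, 22 nt in WT isoform 7 and 28 nt in WT isoform 1. Over all sites the medians were 20, 20, 24, 23, 21 and 24 nt in the same order, so WT isoform 1 differed most from its own list. Its mean width on these transcripts was 38.7 nt (SD 34.8 across 243 sites), against 29.5 nt over its whole list. The repeat flag was set for 8.82% of the sites on these transcripts in FXR1 (1.86 to 23.7), 2.56% in FXR2, 5% in I304N isoform 7, 3.66% in I304N isoform 1, 4.23% in WT isoform 7 and 7.41% in WT isoform 1 (4.45 to 11.5). Each of these intervals contains the share over the whole list, which ran from 3.03% in I304N isoform 1 to 6.11% in FXR1.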

How the data were processed

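PAR-CLIP sites were analysed from 6 libraries of HEK293 cells, with the tagged protein in the labels as the group. Alignment used Bowtie 0.12.7 and the build hg19, as named in the submitters' processing notes. What called the sites, at which threshold and from how many reads, is not given in the sources used here. The deposited score is a repeat flag, per the file headers 1000 outside and 0 inside a repeat, so every site counts alike whatever its reads. Site number depends on depth and on the caller as well as on binding.

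Sites were assigned by midpoint and strand and scaled to 100000 per list. Ratios carry exact conditional, shares Clopper-Pearson and numbers Poisson 95% intervals, and no p-value was computed. A 2-fold limit on the log2 of scaled number plus a pseudocount of 1 was applied to the 7 transcripts and to strand-specific windows of 50 kb with a mean of at least 2 scaled sites, as background. Window counting and intervals were tested on simulated data. Members and lists were chosen with earlier results of these data known. All 7 members are named, with the 3 densest 1 kb windows of each and the regions of all 6 libraries. A further list of stress granule genes was not analysed here, since it needed an hg19 annotation. Alternatives were any overlap with the span, repeat-flagged or mitochondrial sites left out, median-of-ratios scaling, covered nucleotides, merged stretches, fewer members, other shares of a span, scaling to the gene's own chromosome, and other pseudocounts, folds and overlaps. Python 3.11.15, pandas 2.3.3 and scipy 1.17.1 were used.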

Additional observations from a re-analysis of the deposited data

Results flagged for a closer look

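On 4 transcripts the ratio of scaled site numbers, with no pseudocount, pointed in opposite directions for the same contrast in its 2 settings and was above 2 or below 0.5 in 1 of them, and with 1 library each these differences were not tested. G3BP2 had a scaled ratio of I304N to WT of 0.496 in isoform 1 and 1.51 in isoform 7, and ATXN2L had 2.77 and 0.984. For isoform 7 over isoform 1, UBAP2L had 2.54 in WT and 0.903 with I304N, and USP10, from 5 to 16 sites per library, had 1.38 and 0.466. With a pseudocount of 1 added to the scaled numbers, G3BP2 and USP10 did not reach 2-fold in either setting. Scaled to sites on its own chromosome, USP10 had 0.834 and 0.478 and no longer differed in direction. WT isoform 1 enters 1 side of each of these pairs.

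The opposite strand of UBAP2L, outside the sites described above, held 12 sites, 3 in I304N isoform 7, 4 in I304N isoform 1 and 5 in WT isoform 7, and none in WT isoform 1, FXR1 or FXR2. A count of 0 allows 3.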

How the results depend on the processing

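No paired analysis was possible because each protein form had 1 library. No replicate could be left out for the same reason. The summed ratio of I304N over WT in isoform 1, 0.725, turned to 1.13 under median-of-ratios scaling, 1.04 for merged stretches, 1.01 without G3BP1 and 1.29 without G3BP1 and G3BP2, the last set chosen after seeing the data. That of FXR1 over FXR2, 1.67, turned to 0.901 without G3BP1 and G3BP2, which left 1.18 for FXR1 over WT isoform 1. For isoform 7 over isoform 1 in WT, 0.908 became 1.37 under median-of-ratios scaling, 0.681 in covered nucleotides, 1.14 in stretches, 1.16 without G3BP1 and 1.65 without both. FXR2 over WT isoform 1 was 0.864 in covered nucleotides and 1.47 in stretches. The G3BP1 ratio of I304N to WT in isoform 1 was 1.04 in stretches, since its dense sites in WT isoform 1 join. In covered nucleotides the same ratio was 0.190. The share of G3BP1, G3BP2 and CAPRIN1 among the sites of WT isoform 1, 81.5%, became 59.8% in merged stretches, an alternative also chosen after seeing the data. The other summed ratios stayed within their counting intervals.

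Numbers of transcripts past the limit are small and moved with it. For I304N over WT in isoform 1, 2 higher became 1 with a pseudocount of 5, 4 at 1.5-fold, 1 at 3-fold and 4 under median-of-ratios scaling, and 1 lower became 3 at 1.5-fold and 0 under that scaling. In isoform 7, 1 lower became 0 with a pseudocount of 5 and 4 at 1.5-fold. For isoform 7 over isoform 1 in WT, 3 higher became 1 at 3-fold and 1 lower became 2 at 1.5-fold. With I304N, 1 lower became 2 with a pseudocount of 0.5, 0 with 5 and 2 at 1.5-fold. For FXR1 over WT isoform 1, 2 higher became 0 at 3-fold and under median-of-ratios scaling. For FXR2, 0 higher became 2 at 1.5-fold. For FXR1 over FXR2, 1 higher became 2 with a pseudocount of 0.5 or 1.5-fold and 0 at 3-fold or under median-of-ratios scaling, and 1 lower became 2 at 1.5-fold and under that scaling. Overlap between WT isoform 7 and FXR1 fell to 1.41% of WT isoform 7 sites and 5.88% of FXR1 sites when 50% of the shorter site was required, and the other overlaps stayed within their intervals. Other causes of these changes were not tested. FXR1, with 9017 sites, limits every comparison it enters.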
